A study of Mus musculus with 16 samples.

Results

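The mouse mitochondrial genome carries 37 genes, and all 37 of their rows, out of 57010 in the count table, were taken by a single rule: the gene symbol starts with mt-. They comprise 13 protein genes, 2 rRNA genes and 22 tRNA genes, which are described separately. RNA was sequenced from microglia of the olfactory bulb (OB), isolated with CD11b magnetic beads from mice of 2 months. The WT groups were C57BL/6J mice with an unmodified App gene, and the APP-NL-G-F groups carried the App knock-in with the Swedish, Arctic and Iberian changes, all on the C57BL/6J background. There were 4 libraries each of WT females, WT males, APP-NL-G-F females and APP-NL-G-F males, 16 in all, and the knock-in is present in every cell of the animal, not in microglia alone. The libraries were made from total RNA by a stranded kit with a ribosomal RNA depletion step. The study's statistics list as many animals per genotype for the microglial isolation as there are libraries, whereas its reporting checklist speaks of technical replicates for RNA sequencing, and no source used here ties a library to an animal. The p-values therefore measure the spread between these libraries, part of which may be technical.

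The mitochondrial genome is a small circle that is transcribed from both strands into long precursor RNAs. The tRNA genes lie between most of the other genes, and their excision from the precursor releases the rRNAs and mRNAs. The 2 rRNAs form the core of the mitochondrial ribosome. The 13 protein genes encode membrane subunits of respiratory complexes I, III and IV and of the ATP synthase, complex V. All other subunits come from nuclear genes. In the annotation, 12 protein genes, both rRNA genes and 14 tRNA genes were on the plus strand, and mt-Nd6 with 8 tRNA genes was on the minus strand.

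Library totals ran from 9052932 to 18117286 counts. The 10 microglial markers summed to between 19693 and 23348 CPM (counts scaled to a library total of 1000000) in every library and none was at 0, against 418 to 761 CPM for 12 neuronal, 481 to 1167 for 7 astrocytic, 232 to 431 for 7 oligodendrocytic and 71.5 to 233 for 10 endothelial markers. The App row ran from 371 to 462 CPM over the WT libraries and, with the knock-in, from 388 to 423 CPM. Such a gene total does not show the 3 coding changes. Nuclear ribosomal RNA took 1.67% to 7.96% of counts, highest in WT male replicate 3, and next in APP-NL-G-F female replicate 3 at 6.22%.

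Parts of the mitochondrial genome are also present in the nuclear chromosomes as old insertions. On the GRCm39 assembly, a stretch of chromosome 1 (chr1:24650616-24655269) matched chrM:6390-11042 in reverse orientation at 99.936% identity over 4654 aligned bases, with 2 substitutions and 1 gap. A second stretch, chr2:22477300-22480546, matched chrM:4441-7699 at 97.362% identity. The 60 bases that open mt-Co2, which encodes a core subunit of cytochrome c oxidase, are shown with both nuclear copies, and capitals mark bases that differ from the mitochondrial sequence.
mt-Co2, chrM:7013-7072, plus strand: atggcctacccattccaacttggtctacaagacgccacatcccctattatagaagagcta
chromosome 1 copy, chr1:24654587-24654646, minus strand: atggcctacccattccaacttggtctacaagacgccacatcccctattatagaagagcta
chromosome 2 copy, chr2:22477915-22477974, minus strand: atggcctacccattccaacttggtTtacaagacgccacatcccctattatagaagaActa
The chromosome 1 copy had 0 differences over these bases and the chromosome 2 copy had 2. The same comparison at the opening of mt-Nd3, a complex I gene, shows 1 of the 2 substitutions of the whole chromosome 1 copy, in capitals in both lines.
mt-Nd3, chrM:9459-9518, plus strand: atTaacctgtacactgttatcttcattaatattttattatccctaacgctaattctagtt
chromosome 1 copy, chr1:24652141-24652200, minus strand: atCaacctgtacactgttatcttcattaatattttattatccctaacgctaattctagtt
The other substitution of that copy was inside mt-Co1 and the gap was inside mt-Tr, the arginine tRNA gene.

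Of the 6 protein genes that lie wholly within the chromosome 1 stretch, 5 had almost no counts, and the other was mt-Nd3. mt-Co2 had between 0 and 12 counts in a library, with a median of 3. The ATP synthase genes mt-Atp6 and mt-Atp8 each had between 0 and 3 counts, and mt-Co3, the third core subunit gene of cytochrome c oxidase, also had between 0 and 3. mt-Nd4l, a small complex I gene, had between 0 and 2. Together these 5 genes held 133 counts over all 16 libraries, against 3189281 for the other 8 protein genes, each of which had at least 386 counts in every library. In all 5, each 75-base window inside the gene occurred letter for letter in a nuclear chromosome, the window length being a choice made for this comparison.

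The other 8 protein genes had fewer such windows. Of the 75-base windows inside mt-Nd3, 98.9% also occurred in a nuclear chromosome, and that gene had between 386 and 957 counts. The share was 61.5% for mt-Nd4, 39.8% for mt-Co1, 5.71% for mt-Nd2 and 1.66% for mt-Nd5, and it was 0% for mt-Nd1, mt-Cytb and mt-Nd6. With windows of 350 bases, about the insert length of these libraries, and counting every window that touches the gene, the share was 100% for mt-Co2, mt-Atp8 and mt-Atp6, 75.4% for mt-Co3, 53.4% for mt-Nd4l, 50.1% for mt-Nd4, 25.3% for mt-Co1 and 2.87% for mt-Nd3, and 0% for the other 5. The gene counter of STAR, which produced the table, records only reads placed at a single locus that overlap a single gene. Which reads were set aside was not analysed here, so the part of these copies in the low counts was not tested.

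Rows for the nuclear copies themselves were also low. On chromosome 1, the pseudogenes Gm28439, Gm10222, Gm28438, Gm28437, Gm28661 and Gm29216, which match mt-Nd4, mt-Nd4l, mt-Nd3, mt-Co3, mt-Co2 and mt-Co1, had between 0 and 23 counts in any library. On chromosome 2, Gm13341, Gm13340 and Gm13339 had between 1 and 40 counts, and Gm4076, a chromosome 13 copy of part of mt-Nd5, had between 0 and 10. Neither the mitochondrial row nor the nuclear row of mt-Co2, mt-Atp6, mt-Atp8, mt-Co3 or mt-Nd4l was used as a level of that transcript, and where the annotation lists a nuclear row that the table lacks, as for the mt-Atp6 copy, no value is given.

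**Figure D1:**
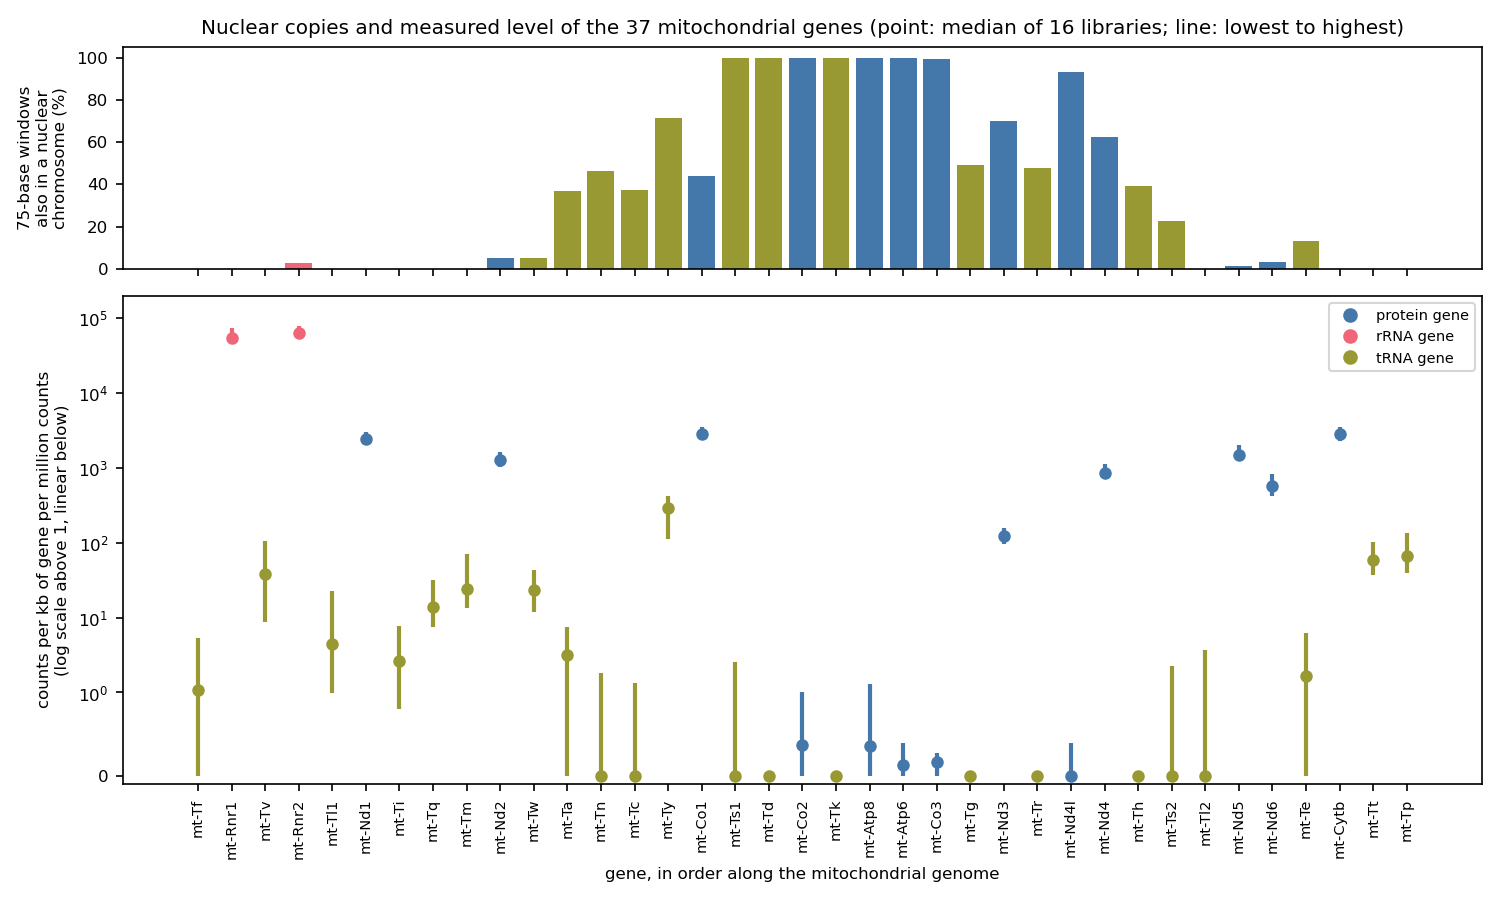
Upper panel: percent of 75-base windows touching each mitochondrial gene that also occur in a nuclear chromosome. Lower panel: CPM per kb of gene, on a scale that is logarithmic above 1 and linear below, with the median of 16 libraries as a point and the lowest to highest library as a line. Genes are in genome order. mt-Co2, mt-Atp8, mt-Atp6, mt-Co3 and mt-Nd4l sit near 0 under the tallest bars, while both rRNA genes sit above all others.

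Levels of different genes were compared as CPM per kb of gene, with CPM taken on plain library totals, which removes gene length. mt-Rnr2, the large ribosomal subunit RNA, was the highest, with a median of 64542 and a range of 58591 to 79625. mt-Rnr1, the small subunit RNA, followed at 55106, with a range of 50025 to 74573. mt-Rnr2 was above mt-Rnr1 in 16 of 16 libraries, by 1.07 to 1.22 times. Both levels are those left after the ribosomal RNA depletion step, so their ratios to other genes need not hold in the cells. mt-Rnr1 stood 17.9 to 22.2 times above mt-Co1, the protein gene with the highest median. The factor was 11.1 to 13.8 when each was divided by its number of 75-base windows without a nuclear copy.

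Among the protein genes the medians on this scale were 2838 for mt-Co1, which encodes the catalytic subunit of cytochrome c oxidase, 2805 for mt-Cytb, the cytochrome b of complex III, and 2424 for mt-Nd1 of complex I. The other complex I genes were lower, with 1481 for mt-Nd5, 1263 for mt-Nd2, 862 for mt-Nd4, 576 for mt-Nd6 and 123 for mt-Nd3. Each neighbouring pair in this order kept its order in 16 of 16 libraries, except mt-Co1 and mt-Cytb, where mt-Co1 was higher in 11 of 16. The number of 75-base windows inside a gene without a nuclear copy was also used as a divisor, called unique kb here. It is below the gene length even where no window has a copy, as for mt-Cytb with 1070 windows in 1144 bases. All counts of a gene were kept, and 75 bases is shorter than the inserts, so the resulting order depends on this divisor. Dividing in this way changed the order. mt-Co1 then stood at 4955, mt-Cytb at 2999, mt-Nd1 at 2627, mt-Nd4 at 2366, mt-Nd5 at 1570, mt-Nd2 at 1442 and mt-Nd6 at 671 CPM per unique kb, so that mt-Nd4 moved above mt-Nd5 and mt-Nd2. mt-Nd3 has only 3 windows without a copy and was not scaled in this way.

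In shares of all counts, the 2 rRNA genes took 14.05% to 19.7% of a library, with a median of 15.5%. The 13 protein genes took 1.33% to 1.98%, with a median of 1.55%. The 5 genes with almost no counts held 133 of these counts over all libraries. This share and the rRNA to protein ratio below therefore describe in effect the other 8 genes. The 22 tRNA genes together took 28.5 to 48.8 CPM, which was 287 to 711 counts a library. mt-Rnr2, with 21013147 counts over all libraries, and mt-Rnr1, with 11056426, were the highest rows in the table. Of all counts on rRNA genes, nuclear ones included, the mitochondrial pair held 65.3% to 91.5%. These are counts left after the depletion step and placed at a single locus, so this is not the proportion in the cells. There were 9.20 to 10.9 rRNA counts for each protein gene count, and 1.77 to 2.01 mt-Rnr2 counts for each mt-Rnr1 count. These ratios were narrow beside the spread of the shares.

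Of the tRNA genes, 5 had 0 counts in every library, namely mt-Td, mt-Tk, mt-Tg, mt-Tr and mt-Th, and 14 of 22 had at most 12 counts in every library. The other 9 of these 14, mt-Tf, mt-Ti, mt-Ta, mt-Tn, mt-Tc, mt-Ts1, mt-Ts2, mt-Tl2 and mt-Te, had between 0 and 8 counts. A count of 0 in a library allows up to 3 counts, and these intervals cover counting error only. The 5 with the highest median counts are shown as they are encoded, with the anticodon in capitals.
mt-Ty, tyrosine, chrM:5260-5326, minus strand: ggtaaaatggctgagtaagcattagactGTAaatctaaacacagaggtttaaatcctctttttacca
mt-Tp, proline, chrM:15356-15422, minus strand: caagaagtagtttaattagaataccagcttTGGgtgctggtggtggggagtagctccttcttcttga
mt-Tt, threonine, chrM:15289-15355, plus strand: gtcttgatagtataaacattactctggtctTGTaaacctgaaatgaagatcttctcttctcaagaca
mt-Tv, valine, chrM:1025-1093, plus strand: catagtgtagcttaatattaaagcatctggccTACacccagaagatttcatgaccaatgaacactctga
mt-Tm, methionine, chrM:3845-3913, plus strand: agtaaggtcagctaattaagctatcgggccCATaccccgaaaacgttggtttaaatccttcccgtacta
mt-Ty was the highest by far, with a median of 247.5 counts and a range of 69 to 398. mt-Tp had a median of 57.5, mt-Tt 50.5, mt-Tv 38 and mt-Tm 23.5 counts. The lowest mt-Ty value, 69 counts, was that of WT male replicate 3, and the next lowest library had 163. Of the 75-base windows touching mt-Ty, 71.6% also occurred in a nuclear chromosome, and of those touching mt-Tp, mt-Tt, mt-Tv or mt-Tm 0% did. For the 5 genes with 0 counts in every library, the share was 100% for mt-Td and mt-Tk, 49.3% for mt-Tg, 47.9% for mt-Tr and 39.0% for mt-Th. Among the other genes with few counts, it was 100% for mt-Ts1, 13.3% to 46.2% for mt-Ta, mt-Tn, mt-Tc, mt-Ts2 and mt-Te, and 0% for mt-Tf, mt-Ti and mt-Tl2. The part of these copies in the low counts was not tested. All 22 tRNA genes are much shorter than the sequenced inserts, so a read pair on a tRNA can also overlap a neighbour, and such reads are not counted for either gene when both lie on the counted strand. Of 12 tRNA genes with at least 60 bases free of a same-strand gene on one side, 6 had enough counts to be tested, against 2 of the 10 without. The 2 were mt-Tv and mt-Tl1, and 0% of the 75-base windows touching either had a nuclear copy. Of the others without a free side, mt-Tn, mt-Tc, mt-Tk, mt-Tg, mt-Tr, mt-Th and mt-Ts2 had 22.6% or more, and mt-Tl2 had 0%. Free sides and nuclear copies were not separated here, and the part of either in the counts was not tested. The counts may come from precursors as well as from tRNAs, and the table does not separate them. mt-Ty and mt-Tp, the tRNA genes with the most counts, lie on the minus strand, and which strand the counts were taken from is not given in the sources used here, so whether reads of plus-strand precursors were counted there cannot be told.

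To ask whether the knock-in changed these transcripts, edgeR's quasi-likelihood test with sex as a covariate was fitted over the 18227 genes that had at least 5 counts in at least 8 libraries. Of the 37 mitochondrial genes, 18 passed that filter: 8 of 13 protein genes, 2 of 2 rRNA genes and 8 of 22 tRNA genes. A gene was called when its Benjamini-Hochberg adjusted p (FDR) was below 0.1 and its log2 fold change was beyond 0.5 in either direction. Between APP-NL-G-F and WT, 1574 genes, 8.64% of those tested, were called, and 0 of the 18 mitochondrial genes were. None of the 18 had an unadjusted p below 0.05 in this fit, where 24.1% of all tested genes did. DESeq2 and limma voom also called 0 of them. For mt-Nd5, p was 0.025 with a term added for the sets of libraries described below (log2 fold change -0.17, FDR 0.128). It was 0.035 with the replicate number as a block (-0.17, FDR 0.164) and 0.0063 without the filter (-0.18, FDR 0.0865). These too were edgeR fits. With the other settings tried on all libraries its p was above 0.05. The CPM ranges of the genotypes were apart for 1.29% of all tested genes and for 0 of the 18.

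**Figure D2:**
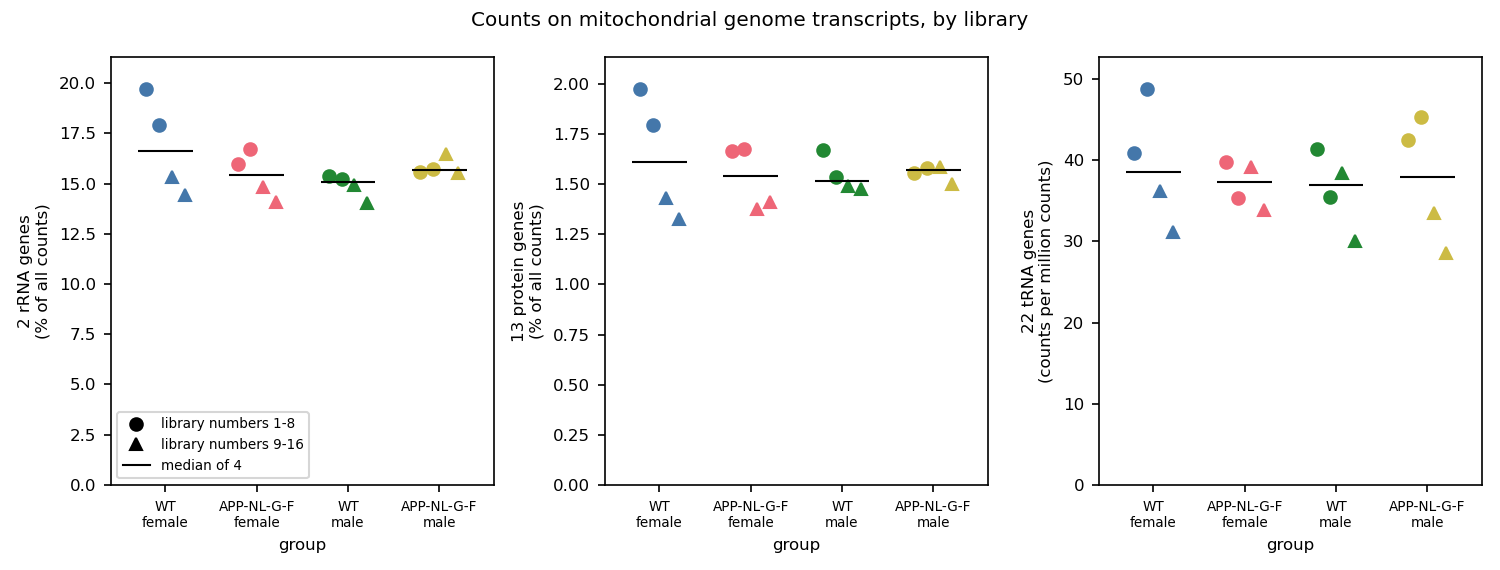
Share of counts on the 2 rRNA genes and the 13 protein genes (percent of all counts) and on the 22 tRNA genes (CPM) in each library, by group. Circles are library numbers 1 to 8, triangles are 9 to 16 and the line is the median of 4 libraries. WT female replicates 1 and 2 have the highest rRNA and protein shares, and the groups overlap.

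The total share of mitochondrial transcripts overlapped between the genotypes. It was 21.7%, 19.7%, 16.7% and 15.7% in WT females and 17.7%, 18.4%, 16.2% and 15.5% in APP-NL-G-F females, in the order of replicates 1 to 4. In males it was 17.04%, 16.7%, 16.4% and 15.5% in WT and 17.2%, 17.3%, 18.1% and 17.04% in APP-NL-G-F. WT female replicates 1 and 2 were the highest of all libraries. The WT mean was 17.5% ± 2.14 (SD, n = 8) and the APP-NL-G-F mean was 17.2% ± 0.953 (SD, n = 8), whereas the medians, 16.7% and 17.2%, lay in the opposite order.

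Both rRNA genes had small log2 differences, APP-NL-G-F minus WT, with intervals that included 0. mt-Rnr2 ran from 89618 to 136700 CPM with a median of 101410 in WT, and from 88289 to 109610 with a median of 101130 in APP-NL-G-F. Its log2 fold change was -0.07 (95% interval -0.23 to 0.10, FDR 0.681), and that of mt-Rnr1 was -0.09 (-0.28 to 0.10, FDR 0.625). In females alone the log2 fold changes were -0.19 (-0.42 to 0.03) for mt-Rnr2 and -0.22 (-0.48 to 0.04) for mt-Rnr1, and in males 0.06 (-0.17 to 0.29) and 0.05 (-0.21 to 0.31).

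The 8 tested protein genes had log2 fold changes from -0.18 to -0.05 with a median of -0.10, where the median of all tested genes was -0.0014. The 8 intervals together spanned -0.49 to 0.19, so none of them reached 0.5 in either direction. The smallest FDR was that of mt-Nd5, a core membrane subunit of complex I that takes part in proton pumping. mt-Nd5 ran from 2459 to 4041 CPM with a median of 2761 in WT libraries and from 2337 to 2953 CPM with a median of 2648 in APP-NL-G-F libraries. Its log2 fold change was -0.18 (SE 0.090, interval -0.37 to 0.01, FDR 0.227). The genotypes overlapped, and the highest values, 4041 and 3750 CPM, were those of WT female replicates 1 and 2. Without WT female replicate 1 the log2 fold change of mt-Nd5 was -0.11 (FDR 0.455). mt-Co1 and mt-Cytb, from complexes IV and III, had log2 fold changes of -0.05 (-0.22 to 0.13) and -0.06 (-0.25 to 0.13). mt-Nd1, mt-Nd2, mt-Nd3 and mt-Nd4 lay between -0.10 and -0.09, and mt-Nd6 was at -0.15 (-0.49 to 0.19). Without the same WT female library, mt-Co1 and mt-Cytb were at 0.02 and 0.01, mt-Nd2 and mt-Nd3 at -0.01, mt-Nd4 at -0.02, mt-Nd1 at -0.03 and mt-Nd6 at -0.05, and the rRNA genes mt-Rnr1 and mt-Rnr2 were at -0.01 and -0.0053, so these small differences rested largely on 1 library.

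The 8 tested tRNA genes were measured with less precision. Their log2 fold changes ran from -0.22 for mt-Tt to 0.38 for mt-Tv, and their intervals spanned -0.91 to 1.58. Each of these intervals reached beyond 0.5 upward or downward, so a change of the size that the call asks for was not excluded. mt-Ty, the one with most counts, had a log2 fold change of -0.19 (-0.58 to 0.19, FDR 0.568). In all, 14 of the 18 mitochondrial genes were below 0, where 50.4% of all tested genes were. The 18 genes share libraries, precursors and a scale, so they do not count as separate observations.

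Within females 1304 genes (7.15%) were called and within males 46 (0.252%), and in both sexes 0 of the 18 mitochondrial genes were called by edgeR or by DESeq2. In females 1 of the 18, mt-Nd5, had an unadjusted p below 0.05, with a log2 fold change of -0.27 (-0.54 to -0.0041, FDR 0.231), where 20.8% of all tested genes had one. In males 0 of the 18 did, against 11.7% of all tested genes. mt-Nd5 in males was at -0.09 (-0.36 to 0.17). The genotype by sex interaction, which tests the difference between the sexes itself, called 5 genes (0.0274%) and 0 of the 18, with 0 of the 18 and 5.94% of all tested genes below an unadjusted p of 0.05, and DESeq2 also called 0 of them. For mt-Nd5 the interaction was -0.18 (-0.56 to 0.20). Between females and males with genotype in the model, 11 genes (0.0604%) were called and 0 of the 18 were, again with 0 of the 18 and 6.56% of all tested genes below an unadjusted p of 0.05 and 0 called by DESeq2, and the protein genes lay between 0.04 and 0.10. In the same libraries 18 of 19 immediate early genes fell with genotype, where 4.3% of all tested genes did. Of 12 neuronal markers, 6 had an FDR below 0.1, as 14.8% of all tested genes did, with a list median of 0.28. Of 10 endothelial markers, 7 fell in females, where 4.33% of all tested genes did, with a list median of -0.96. In males that list went the other way, with a median of 0.69 and 1 called, where 0.252% of all tested genes were. With the sexes together 0 of the 10 were called, against 8.64%. Of 7 oligodendrocytic markers, 3 had an FDR below 0.1 with the sexes together, against 14.8%, with a list median of 0.38. Of 7 astrocytic markers, 3 fell in females, against 4.33%, with a list median of -0.62. In males 0 of the 7 were called, against 0.252%, with a list median of 0.14. Of 8 nuclear-retained RNAs, 5 rose and 1 fell with the sexes together, where 8.64% of all tested genes were called. The part of these gene groups in the mitochondrial values was not tested.

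Nuclear genes whose products serve the mitochondrial genome were counted by role, beside the 8.64% of all tested genes that were called between the genotypes and the 14.8% with an FDR below 0.1. Of 20 tested genes for transcription and upkeep of mitochondrial DNA, 1 rose and 0 fell. It was Mterf2, a member of the mitochondrial termination factor family, from a mean of 1.01 CPM in WT to 1.89 CPM in APP-NL-G-F (log2 fold change 0.89, SE 0.213, FDR 0.0130). The list median was -0.04, and 4 of the 20 had an FDR below 0.1. Of 39 genes for mitochondrial RNA processing, modification and stability, 0 rose and 1 fell. It was Trmt61b, a methyltransferase that modifies mitochondrial tRNA and rRNA (10.1 CPM to 6.74 CPM, log2 fold change -0.57, SE 0.129, FDR 0.0094). The list median was -0.0046, and 2 of the 39 had an FDR below 0.1. Of 10 regulators of mitochondrial biogenesis, 1 rose and 0 fell, namely Ppargc1a, the coactivator PGC-1α (11.9 CPM to 17.7 CPM, log2 fold change 0.59, SE 0.128, FDR 0.0075), and 2 of the 10 had an FDR below 0.1.

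The nuclear partners of the mitochondrially encoded subunits were not called. In edgeR's test 0 of 37 nuclear complex I genes, 0 of 9 of complex III, 0 of 11 of complex IV and 0 of 16 of complex V were called between the genotypes, where 8.64% of all tested genes were. Of the same lists 3, 0, 1 and 0 genes had an unadjusted p below 0.05, against 24.1% of all tested genes, and the list medians were -0.05, -0.02, -0.05 and -0.02. Of complex I, Ndufc2 (log2 fold change -0.13, FDR 0.157), Ndufb5 (0.13, FDR 0.170) and Ndufa3 (-0.15, FDR 0.173) had the smallest p. Of 77 tested mitochondrial ribosome proteins, the protein partners of the 2 rRNAs, 0 were called and 6 had an unadjusted p below 0.05, against the same 8.64% and 24.1% of all tested genes, with a list median of -0.01. The smallest p there was that of Mrpl41, with a log2 fold change of -0.31 (FDR 0.0514).

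**Figure D3:**
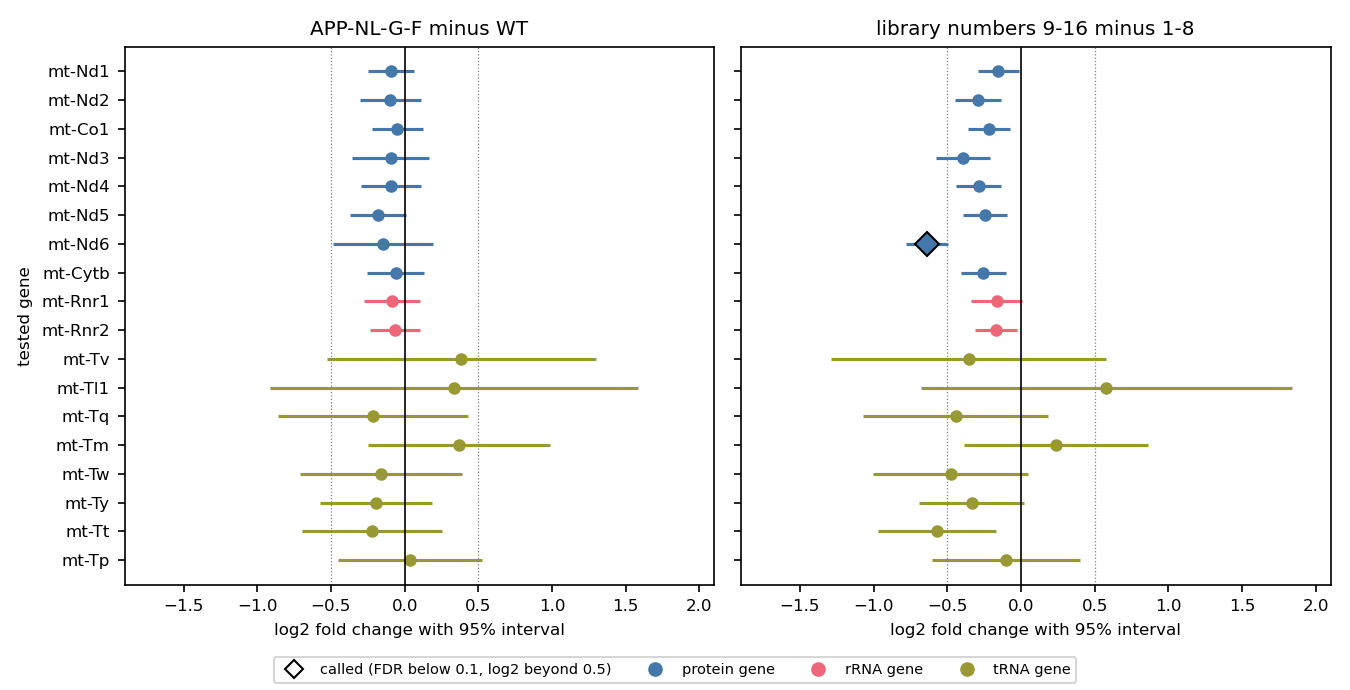
Log2 fold changes with 95% intervals of the 18 tested mitochondrial genes for APP-NL-G-F minus WT (left) and for library numbers 9 to 16 minus 1 to 8 (right). Dotted lines mark 0.5 in both directions and the diamond marks a called gene. On the left all intervals include 0, and on the right mt-Nd6 lies at -0.64.

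The libraries are numbered 1 to 16 in the submitters' names, and numbers 1 to 8 are replicates 1 and 2 of every group while 9 to 16 are replicates 3 and 4. The labels do not say what the numbers stand for. A comparison of the 2 sets, with sex and genotype in the model, was added after the data were seen. It called 133 of 18227 genes (0.73%), of which 18 (0.0988%) were lower in libraries 9 to 16. Of the 18 mitochondrial genes 1 was called, mt-Nd6, and it was lower.

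mt-Nd6 is the single protein gene on the minus strand and encodes a membrane subunit of complex I. Its last coding bases overlap the end of mt-Nd5 on the other strand, and the 60 bases around that junction are shown with the 14 shared bases in capitals.
mt-Nd5 and mt-Nd6 ends, chrM:13529-13588, plus strand: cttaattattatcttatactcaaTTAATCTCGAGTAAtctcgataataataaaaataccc
Because it is read from the other strand, mt-Nd6 has a different base make-up. G made up 28.1% of its coding bases, against 5.88% to 16.1% in the other 12 protein genes, while its GC content of 34.1% was within their range of 31.9% to 41.1%. The first 60 coding bases of mt-Nd6 and mt-Cytb are shown with G in capitals.
mt-Nd6, chrM:14011-14070, minus strand: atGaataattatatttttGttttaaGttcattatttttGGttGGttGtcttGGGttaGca
mt-Cytb, chrM:14145-14204, plus strand: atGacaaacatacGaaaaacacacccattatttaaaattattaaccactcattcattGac
There were 12 G in the first and 3 in the second.

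In WT males mt-Nd6 was at 383.5 and 334.0 CPM in libraries 1 and 2 and at 257 and 242 CPM in libraries 9 and 10. In WT females it was at 466 and 426 CPM in libraries 4 and 8 and at 245.5 and 229 CPM in libraries 12 and 14. In APP-NL-G-F females it was at 350.5 and 378 CPM in libraries 3 and 5 and at 218 and 215 CPM in libraries 11 and 13. In APP-NL-G-F males it was at 335 and 322 CPM in libraries 6 and 7 and at 275 and 233 CPM in libraries 15 and 16. Every library of the first set was therefore above every library of the second, in each of the 4 groups as well as over all, with medians of 364 and 237 CPM. Ranges that did not overlap, with the second set lower, were found for 0.154% of tested genes, and for 1 of the 18 mitochondrial genes.

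The log2 fold change of mt-Nd6 was -0.64 (SE 0.068, 95% interval -0.78 to -0.50, FDR 0.000436), with the smallest p of the 18227 genes tested. It was -0.72 (FDR 0.00668) in the WT libraries alone and -0.55 (FDR 0.117) in the APP-NL-G-F libraries alone, where it did not pass. The difference between the genotypes in this respect was not tested. As a description chosen after the values were seen, mt-Nd6 counts were 11.4% to 12.8% of mt-Nd5 counts in libraries 1 to 8 and 8.72% to 9.99% in libraries 9 to 16. They were 2.06% to 2.33% of all mitochondrial protein gene counts in the first set and 1.60% to 1.76% in the second.

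**Figure D4:**
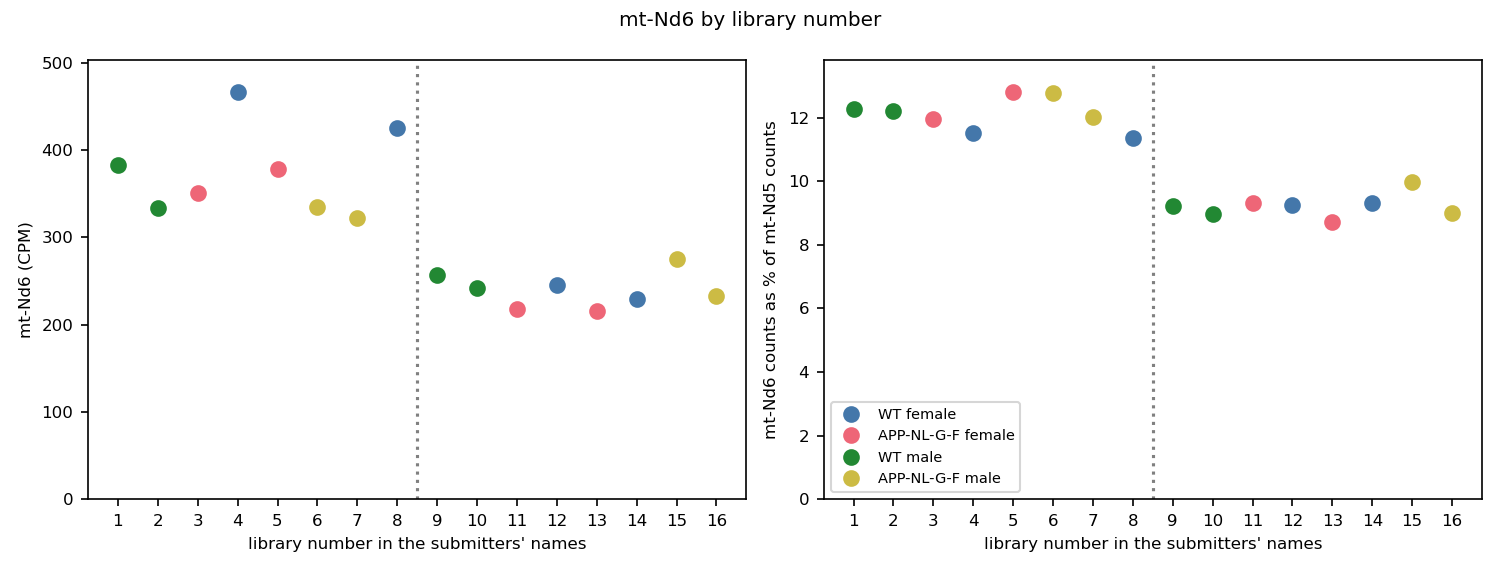
Left: CPM of mt-Nd6 in each of the 16 libraries against the library number. Right: mt-Nd6 counts as percent of mt-Nd5 counts in the same libraries. Colours are the 4 groups and the dotted line separates libraries 1 to 8 from 9 to 16. All libraries on the left of the line are above all on the right, in both panels.

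The other tested mitochondrial genes had smaller log2 fold changes between the 2 sets, in either direction, but those of the tRNA genes were imprecise. With FDR alone as the criterion, 6 of the 8 protein genes were lower in libraries 9 to 16, where 1.88% of all tested genes were. Besides mt-Nd6 these were mt-Nd3 (log2 fold change -0.39, FDR 0.0368), mt-Nd2 (-0.29, FDR 0.0580), mt-Nd4 (-0.29, FDR 0.0541), mt-Cytb (-0.26, FDR 0.0841) and mt-Nd5 (-0.25, FDR 0.0876). Of these, mt-Nd6 and mt-Nd3 kept an FDR below 0.1 whichever library was left out. The FDR was 0.1 or above in 2 of 16 such fits for mt-Nd2 (highest 0.107, without APP-NL-G-F female replicate 4), in 2 for mt-Nd4 (0.103, without WT female replicate 4), in 9 for mt-Cytb (0.149, without APP-NL-G-F female replicate 4) and in 10 for mt-Nd5 (0.161, without WT female replicate 4). In the WT libraries alone mt-Nd6 was the one protein gene with an FDR below 0.1, and in the APP-NL-G-F libraries alone there was none. mt-Co1 was at -0.22 (FDR 0.107) and mt-Nd1 at -0.15 (FDR 0.267). The rRNA genes were both at -0.17, with FDR 0.358 for mt-Rnr1 and 0.225 for mt-Rnr2, and 6 of the 8 tested tRNA genes were below 0, none of them called. In all, 16 of the 18 were below 0, against 47.8% of all tested genes, and 10 had an unadjusted p below 0.05, against 15.5%. Scaling on the total of the 13 protein genes sets those genes near 0 as a group by construction, and the median of all tested genes moved to 0.25. On that scale mt-Nd6 was at -0.40 (FDR 0.000224), which says that it lay lower than the other protein genes did, and mt-Co1, mt-Nd1, mt-Rnr1, mt-Rnr2 and mt-Tp were above 0.

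Other gene groups also differed between the 2 sets of libraries. Of all tested genes 0.631% were called higher in libraries 9 to 16. Of 19 immediate early genes, 3 rose there and 0 fell, with a list median of 0.39, and their summed level was 3789 to 18640 CPM in libraries 1 to 8 and 4423 to 14529 CPM in libraries 9 to 16. Of 8 nuclear-retained RNAs, 1 rose and 0 fell, with a list median of 0.24. The nuclear genes of complexes I, III, IV and V had 0 calls, where 0.73% of all tested genes were called, and list medians of -0.08, -0.08, -0.10 and -0.10. Of their 37, 9, 11 and 16 tested genes, 13, 1, 3 and 7 had an unadjusted p below 0.05 in edgeR's test, against 15.5% of all tested genes. Nuclear ribosomal RNA took 1.67% to 3.45% of counts in the first set and 2.25% to 7.96% in the second. The upper end of the second set came from WT male replicate 3 (7.96%) and APP-NL-G-F female replicate 3 (6.22%). The next highest library of that set, WT female replicate 3, was at 3.01%, inside the range of the first set. The part of any of these in the mt-Nd6 difference was not tested, and what distinguished the 2 sets of libraries is not given in the sources used here.

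The strand column used for the counts is not given in the sources used here. Long plus-strand precursors run through the mt-Nd6 region, and if strand had not been used in counting, their reads could not be told apart from those of mt-Nd6 or of the minus-strand tRNA genes.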

How the data were processed

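RNA of 16 libraries of OB microglia was sequenced. The deposited table holds raw counts per gene, which the authors made with STAR 2.7.8 on a customised GRCm39 genome with the GENCODE M32 annotation, with no normalization. Library totals were 9052932 to 18117286, so that counting error was small for the rRNA and protein genes and large for most tRNA genes. Members and gene lists were chosen with earlier results of these data known. By the rule for named genes, the protein and rRNA genes were named with values, as were tRNA genes that were called or among the 5 with the highest median counts. Other tRNA genes were named after their values were seen, and list genes were named when called or by smallest p.

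Fitting was limited to genes for which 8 or more libraries had a count of 5 or higher, and was done with edgeR 4.0.16 (TMM, quasi-likelihood test, Benjamini-Hochberg adjustment over all 18227 genes) with R 4.3.3. CPM used TMM-scaled totals, whereas shares and levels per kb used plain totals. limma 3.58.1 (voom) and DESeq2 1.42.0 were alternatives. Intervals are 95%. The scripts were tested on simulated counts. Nuclear copies were found with BLAST+ 2.17.0 (at least 90% identity, word size 28) on GRCm39, and gene positions came from a later GENCODE release of that assembly, which matched 94.8% of the table's symbols. Sequences are those of the reference genome. Groups came from the sample titles.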

Additional observations from a re-analysis of the deposited data

Results flagged for a closer look

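Of 92 sets of 4 libraries examined, 5 held a library whose gap to its nearest neighbour exceeded Dixon's 95% critical share of the range, and chance flags about 1 in 20. mt-Rnr1 was at 58783 CPM in APP-NL-G-F male replicate 3, where the other 3 libraries of that group were between 50553 and 51098 CPM. In WT male replicate 3, mt-Tl1 was at 1.79 CPM against at most 0.304 CPM in the others, mt-Tm at 3.24 CPM against at most 1.28 and mt-Tw at 3.02 CPM against at most 1.52. In APP-NL-G-F female replicate 2, mt-Tq was at 2.24 CPM against at most 0.802 CPM in the others. WT male replicate 3 also had the highest share of nuclear ribosomal RNA, 7.96%, and the lowest mt-Ty count. No mitochondrial gene was flagged for a genotype difference that differed between the sexes (interaction FDR below 0.1).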

How the results depend on the processing

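No mitochondrial gene was called between the genotypes with the sexes together under any alternative, and the lowest FDR of a member was 0.0865 (mt-Nd5 without the filter on low counts). Over 1025 member values under the alternatives, 24 changed sign, all of them for genes called neither in the main result nor in the alternative. Without the filter, 2 were called within females, mt-Tv (0.82, FDR 0.0258) and mt-Tt (-0.60, FDR 0.0835), and the counts of all genes were 2136 in females, 880 in males, 470 for the interaction and 57 for sex. FDR alone called 2692 genes between the genotypes. Within males a separate fit called 4 genes and DESeq2 276, and DESeq2 called 81 for the interaction. Between the sets of libraries DESeq2 called 61 genes, no filter 304, the WT libraries alone 76 and the APP-NL-G-F libraries alone 0. Members called there were 0 on the scale of the mitochondrial protein genes, 0 in the APP-NL-G-F libraries alone, 2 without the filter (mt-Tt joined at -0.58, FDR 0.0148) and 2 without the 2 libraries with most nuclear ribosomal RNA (mt-Tv joined at -1.19, FDR 0.0993). Except where a filter or fewer libraries define the alternative, the cause was not tested. Over nuclear protein-coding counts alone, the median shares were 2.08% for protein, 20.6% for rRNA and 0.00504% for tRNA genes.

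Leaving out 1 library at a time gave 1101 to 2187 called genes between the genotypes, 594 to 2110 in females, 5 to 603 in males, 1 to 43 for the interaction, 5 to 9 for sex and 83 to 242 between the sets of libraries. The lowest and highest were without APP-NL-G-F male replicates 2 and 3 for genotype and for males, without WT female replicates 1 and 4 for females, without WT male replicate 2 and WT female replicate 4 for the interaction, and without WT female replicate 4 and APP-NL-G-F male replicate 3 between the sets of libraries. Members called were 0 to 0 throughout, except 1 to 2 between the sets of libraries, where mt-Nd6 stayed between -0.68 and -0.60 and mt-Tt joined in 3 of 16 fits. Deviations of same-numbered libraries from their group means had correlations from -0.33 to 0.29 (8 of 24 over 0.1). Their median was 0.03, against -0.03 for libraries of other numbers, which does not settle whether replicate numbers pair the samples. With the replicate number as a block 1562 genes were called between the genotypes, 3 for the interaction and 101 between the sets of libraries, with 0, 0 and 1 members, and mt-Nd6 at -0.64 (FDR 0.00194).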
